A study of Mus musculus with 2 samples.

Results

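The killer cell lectin-like receptors are C-type lectin-like membrane proteins, and the 9 described here are those outside the Ly49 (Klra) branch of the family. They were Klrb1b, Klrb1c, Klrc1, Klrc2, Klrd1, Klre1, Klri2, Klrk1 and Klrg1, taken by gene symbol from 28692 genes in the deposited matrices, and all 9 had UMIs in both libraries. The libraries came from adult wild-type C57BL/6 mice, 1 from mice on normal chow (the control) and 1 from mice on a ketogenic diet (KD) for 1 week, a diet that makes the liver produce ketone bodies. In each, droplet-based (10x Genomics) RNA sequencing was done on CD45+ leukocytes of adipose tissue, and intravenous labelling had separated cells resident in the tissue from those in blood. The number, sex and pooling of the mice are not given in the sources used here. With 1 library per diet no difference between diets has a replicate check, so no p-value is given and every interval covers counting error only.

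The receptors sit on natural killer (NK) cells and on parts of other lymphoid populations, where they pass activating or inhibitory signals that set whether a cell kills or releases cytokines. Klrd1 encodes CD94, which pairs with the NKG2 proteins: with NKG2A (Klrc1) it forms an inhibitory receptor and with NKG2C (Klrc2) an activating one, both reading the class Ib molecule Qa-1 (H2-T23). Klrk1 encodes NKG2D, an activating receptor for stress-induced ligands of the Raet1, H60 and Ulbp1 families. Klre1 pairs with Klri1 in an inhibitory receptor or with Klri2 in an activating one. Klrb1b is an inhibitory receptor for Clec2d, and Klrb1c is the activating receptor that carries the NK cell antigen of C57BL/6 mice. Klrg1 is an inhibitory receptor for cadherins such as E-cadherin (Cdh1) and is also known from group 2 innate lymphoid cells (ILC2) and tissue regulatory T cells (Treg).

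In the GRCm38 annotation, 8 of the 9 genes lie in the NK gene complex on chromosome 6, chr6:128778485-129740484, a span of 962 kb. From low to high coordinate they are Klrb1c, Klrb1b, Klre1, Klrd1, Klrk1, Klrc2, Klrc1 and Klri2. Klre1 and Klrd1 are on the plus strand and the others on the minus strand. Klrg1 (chr6:122270596-122282882, minus strand) lies 6.50 Mb away. These genes arose by duplication, so short reads can fit more than 1 of them: of all 90-base windows of a gene's transcripts, 18.6% of those of Klrc1 also occur in Klrc2, and 8.75% of those of Klrc2 occur in Klrc1 or Klrc3. The share was 22.9% for Klrb1b and 11.5% for Klrb1c, mostly through Gm44511, an annotated gene that overlaps both and had 0 clustered UMIs under chow and 1 under KD. Klrd1, Klre1, Klrk1 and Klrg1 shared no such window.

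The 250 bases upstream of the transcription start are shown for the Klrb1 pair, neighbours that differed in where they were detected, and for the Klrc pair, whose levels across clusters were most alike. RefSeq promoters (GRCm38.p6) cover 6 of the 9 genes, and the 4 shown are on the minus strand. Capitals mark matches on either strand to a core Runx motif (TGTGGT or ACCACA) or a core Ets motif (GGAAGT or ACTTCC).
Klrb1c, chr6:128788642-128788891: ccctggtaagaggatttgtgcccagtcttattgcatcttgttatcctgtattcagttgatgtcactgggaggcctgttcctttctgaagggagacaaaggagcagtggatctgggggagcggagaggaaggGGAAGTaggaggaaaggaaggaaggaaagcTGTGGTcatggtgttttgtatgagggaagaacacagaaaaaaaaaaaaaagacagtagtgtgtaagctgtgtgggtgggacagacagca
Klrb1b, chr6:128826316-128826565: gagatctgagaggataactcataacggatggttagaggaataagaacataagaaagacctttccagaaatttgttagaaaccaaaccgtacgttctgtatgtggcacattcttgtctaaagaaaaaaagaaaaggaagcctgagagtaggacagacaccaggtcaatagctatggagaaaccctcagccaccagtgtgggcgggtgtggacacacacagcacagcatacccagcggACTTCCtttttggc
Klrc1, chr6:129678974-129679223: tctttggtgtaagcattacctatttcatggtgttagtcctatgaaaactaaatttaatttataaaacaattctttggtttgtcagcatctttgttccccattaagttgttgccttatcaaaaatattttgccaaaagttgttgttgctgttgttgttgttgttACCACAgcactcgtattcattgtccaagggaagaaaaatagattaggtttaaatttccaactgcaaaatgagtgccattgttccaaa
Klrc2, chr6:129660597-129660846: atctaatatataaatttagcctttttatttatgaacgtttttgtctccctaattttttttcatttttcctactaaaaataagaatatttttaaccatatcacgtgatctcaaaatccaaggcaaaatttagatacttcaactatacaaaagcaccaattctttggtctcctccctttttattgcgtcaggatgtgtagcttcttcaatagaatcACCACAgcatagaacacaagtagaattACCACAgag
The Runx letters occurred in 5 of the 6 promoters (Klrb1c, Klrc1, Klrc2, Klre1 and Klrk1) and 2 times in that of Klrc2, against 14.0% of 32851 promoters of the same length. The Ets letters occurred in those of Klrb1b and Klrb1c, against 19.7% of all promoters. The T-box core motif (TCACAC or GTGTGA), had no match in the 6 windows and occurred in 12.3% of all promoters. The promoters of Klrb1b and Klrb1c were 42.0% identical over their alignment and those of Klrc1 and Klrc2 44.0%, both below the median of 44.5% over 55 pairs of promoters from this gene family. These matches are descriptions of the letters, and the factors' binding was not measured.

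The chow library held 4545 cells and the KD library 5614, with medians of 3469 and 3461.5 UMIs (unique molecular identifiers, each marking 1 captured transcript molecule) per cell. The authors' deposited table placed 4458 and 5559 of them in 13 numbered clusters, without cell type names. Names with "-like" below come from marker genes: ILC2-like (cluster 0), NK-like (1), T-like with CD4 and CD8 markers (2), macrophage-like (3), conventional dendritic cells (cDC) of type 2 (cDC2-like, 5) and type 1 (cDC1-like, 6), Treg-like (7), B and plasma-like (9), cycling (10), gamma-delta T-like (11) and mature dendritic cell-like (mature DC-like, 12). Cluster 4, led by T cell and NK cell genes together, and cluster 8, led by Retnla, Fcrls and Lyz1, stay unnamed. Ptprc, which encodes CD45, was detected in 82.6% of chow and 82.3% of KD cells, and the adipocyte gene Adipoq had 1 UMI in each library. There were 41 cell barcodes shared by the libraries, of which 7 chow and 11 KD cells were in cluster 1. Levels are CPM, the summed UMIs of a gene in a cluster and library, divided by all UMIs of that cluster and library and scaled to a common total. Reads of 3′-biased droplet libraries do not compare levels between genes, so levels are compared only within a gene.

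**Figure D1:**
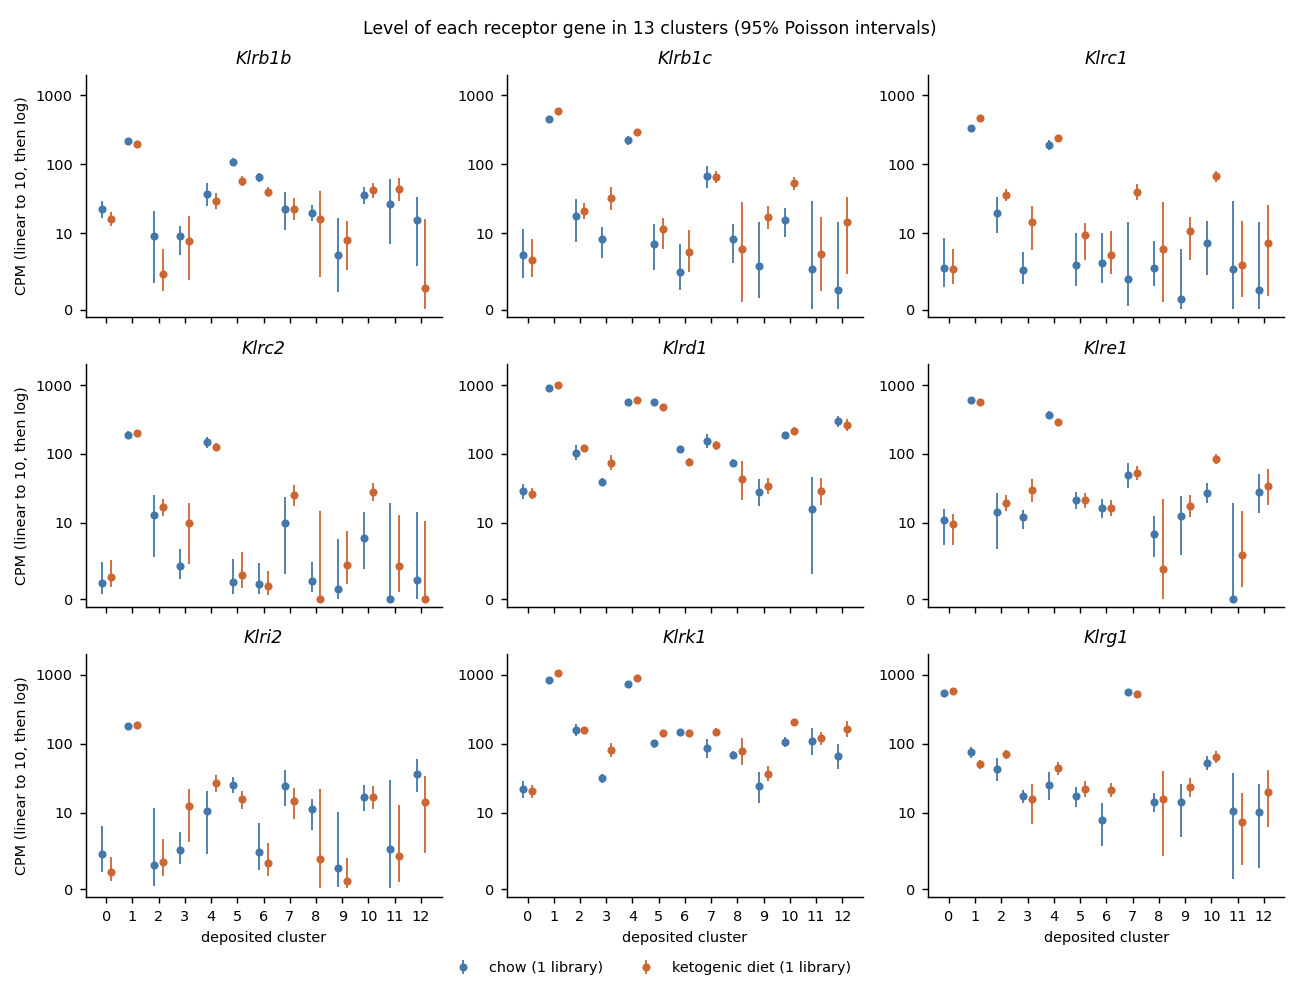
CPM of each receptor gene (linear up to 10, logarithmic above) in the 13 deposited clusters, blue for the chow and orange for the KD library, with 95% exact Poisson intervals of the counts. The 8 genes of the NK gene complex peak in cluster 1, 7 of them with cluster 4 or cluster 5 next, while Klri2 falls off after cluster 1 and Klrg1 peaks in clusters 0 and 7.

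The NK-like cells of cluster 1 held 43.1% of the clustered UMIs of the 9 receptors under chow and 49.3% under KD, and each gene had its own distribution over the other clusters. Klrb1c, Klrc1, Klrc2 and Klre1 had 82.6% to 87.2% of their clustered UMIs in clusters 1 and 4, in both libraries. Klrk1 and Klrd1 reached well beyond them, Klrd1 into the dendritic cells. Klrb1b and Klri2 were high in cluster 1 and low in cluster 4, and Klrg1 was a gene of ILC2-like and Treg-like cells. The clusters were built on the transcriptomes that include these genes, so their levels across clusters are a description.

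Klrb1c stood at 452 CPM under chow and 582 under KD in cluster 1 and at 223 and 296 in cluster 4. Next came the Treg-like cluster 7, at 66.2 and 65.7, and the intervals of clusters 1 and 4 did not overlap with each other or with those of cluster 7. Klrc1 was also highest in cluster 1, at 334 and 473 CPM, and next in cluster 4, at 191 and 240. It was below 67 CPM in the other clusters, with cluster 7 at 4.01 and 39.6. Klrc2 followed at 191 and 198 in cluster 1 and 149 and 125 in cluster 4, where under chow the intervals of the clusters overlapped. Klre1 stood at 611 and 563 in cluster 1, 373 and 292 in cluster 4 and 50.2 and 53.7 in cluster 7. In ILC2-like cells, innate lymphocytes without killer function, Klrb1c was at 7.15 and 6.42 CPM and Klrc1 at 5.47 and 5.28.

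Klrb1b, the inhibitory neighbour of Klrb1c, had another order. It stood at 219 CPM under chow and 193 under KD in cluster 1, then at 107 and 57.5 in the cDC2-like cluster 5 and 64.8 and 39.9 in the cDC1-like cluster 6. Under KD the gamma-delta T-like cluster 11 (44.0) and the cycling cluster 10 (42.0) also stood above cluster 6. In cluster 4, where Klrb1c was second highest, Klrb1b had 28 chow and 57 KD UMIs, or 37.2 and 29.4 CPM. Klri2 was at 180 and 184 CPM in cluster 1 and at 10.6 and 26.8 in cluster 4, although its partner Klre1 was well detected in both. The other partner, Klri1, was at 3.89 and 3.34 CPM in cluster 1, and at 22.2 and 17.4 in the cDC2-like cells, where Klri2 was at 25.4 and 15.6. Clusters 1 and 4 thus shared Klrb1c, Klrc1, Klrc2, Klrd1, Klre1 and Klrk1 at levels 1.13-fold to 2.03-fold higher in cluster 1. Klrb1b was 5.90-fold higher in cluster 1 under chow and 6.57-fold under KD, and Klri2 16.97-fold and 6.88-fold.

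Klrk1 was at 848 and 1072 CPM in cluster 1 and 747 and 893 in cluster 4, with intervals that overlapped under chow. The T-like cluster 2 stood at 158 and 156 and the cDC1-like cells at 149 and 143. Under chow cluster 2 was the next after cluster 4, while under KD the cycling cluster 10 (209) and the mature DC-like cells (165) stood above it. Within cluster 2, cells with Cd8a or Cd8b1 and no Cd4 had 234 and 226 CPM, and cells with Cd4 and neither Cd8 gene 95.2 and 76.6. The ratio of the CD8 to the CD4 side was 2.46 (95% interval 1.26 to 5.09) under chow and 2.95 (2.18 to 4.05) under KD. Klrd1 divided along the same line, at 234 and 238 CPM on the CD8 side and 36.6 and 67.3 on the CD4 side. These sides held 46 and 206 CD8 cells and 56 and 212 CD4 cells under chow and KD.

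Klrd1 extended into the dendritic cells. After cluster 1 (898 CPM under chow and 1008 under KD) came cluster 4 (564 and 604) and the cDC2-like cells (559 and 479), whose chow intervals overlapped, and then mature DC-like cells (300 and 266). Klrc1 and Klrb1c were not found there in the same proportion. In cluster 1 there were 1.14 Klrd1 UMIs under chow and 0.955 under KD for each UMI of Klrc1 and Klrb1c together, and in cluster 5 there were 38.5 and 22.4. Klrb1b and Klrk1 also stood higher against those genes in cluster 5, at 7.34 and 2.69 UMIs for Klrb1b (0.279 and 0.183 in cluster 1) and 6.97 and 6.63 for Klrk1 (1.08 and 1.02). Among cDC2-like cells with no UMI of Ncr1, Gzma, Klrb1c, Klrc1 or any Klra gene (166 chow and 143 KD cells), Klrd1 was at 487 and 396 CPM. In the cDC2-like cells with such a UMI it was higher, at 623 and 528 CPM, a ratio of 1.28 (1.14 to 1.44) and 1.33 (1.18 to 1.502). Cluster 5 also held 23 chow and 30 KD cells with Siglech, a plasmacytoid dendritic cell marker, with Klrd1 at 629 and 778 CPM, and without them Klrd1 was at 555 and 458. After each cell was thinned to 1000 UMIs, 37.8% of cDC2-like chow cells and 34.9% of KD cells had a Klrd1 UMI, against 2.97% and 2.51% of ILC2-like cells. Without thinning these shares were 81.1% and 82.7% against 7.73% and 8.24%, at median depths of 6352.5 and 7722.5 UMIs in cDC2-like and 2610.5 and 3133 in ILC2-like cells. Both splits of the cDC2-like cells were chosen after values were seen.

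Klrg1 was at 549 and 580 CPM in ILC2-like cells and 558 and 532 in Treg-like cells, levels that did not differ beyond their intervals in either library. NK-like cells stood at 75.1 and 50.6, the next level under chow, while under KD the T-like cluster 2 (70.0) and the cycling cluster (65.2) stood above them. Of all clustered Klrg1 UMIs, 63.9% under chow and 62.3% under KD were in ILC2-like cells. Among those cells the level with and without a UMI of Il1rl1, the IL-33 receptor, did not differ beyond counting error, at a ratio of 1.003 (0.859 to 1.18) under chow and 1.01 (0.923 to 1.11) under KD. Within the Treg-like cluster, cells with a UMI of Foxp3, the Treg transcription factor, had 922 and 804 CPM and the others 452 and 422, a ratio of 2.04 (1.59 to 2.62) and 1.91 (1.64 to 2.21). Klre1, Klrd1 and Klrk1 had lower levels on the Foxp3 side of that cluster: under KD Klre1 was at 12.3 against 70.4 CPM, Klrd1 at 79.0 against 155 and Klrk1 at 83.9 against 177.

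Across the 26 cluster-by-library values of log2(CPM + 10), the receptors fell into groups that mirror these orders. Klrb1c, Klrc1, Klrc2 and Klre1 correlated with each other at Pearson's r of 0.924 to 0.976. Klrb1b reached at most 0.712, with Klri2, and Klrg1 ranged from -0.11 to 0.24 with the other 8. These r are descriptions over values that share 2 libraries and 13 clusters. Among 10361 other genes with at least 100 UMIs, the most alike to Klrb1c were Klra9 (0.984), Klra7 and Xcl1, and those to Klre1 were Klra9 (0.958), Ncr1 and Klra7. Klrc1 was most like Samd3 (0.975), Xcl1 and Qrfp, and Klrc2 most like Xcl1 (0.968), Samd3 and Klra7. Klri2 was nearest to Itgad (0.899), Serpinb9b and Phactr3, and Klrk1 to Klra7 (0.871), Il12rb2 and Wdr95. For Klrg1 they were Lgals7 (0.922), Rnf128 and the type 2 cytokine Il5. Klrd1 and Klrb1b had no close match: the nearest were Dusp2 (0.821), Il12rb2 and Slc14a1 for Klrd1, and Sema4c (0.790), Arsb and Cd244 for Klrb1b.

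Within the NK-like cluster, the receptors also differed between cells with and without a Ly49 (Klra) UMI. A cell with no such UMI is not shown to lack Ly49 transcripts. Cells with a UMI of any Klra gene numbered 539 under chow and 848 under KD, and those without 185 and 214. Klrb1b was higher in the cells without a Ly49 UMI, at 370 against 162 CPM under chow and 349 against 153 under KD, a ratio of 2.28 (1.86 to 2.80) and 2.29 (1.95 to 2.68). Klrc1 was higher there too, at 458 against 287 and 598 against 441. Klri2 went the other way, at 224 CPM with and 63.1 without a Ly49 UMI under chow and 214 and 71.4 under KD, a ratio of 3.56 (2.45 to 5.33) and 2.99 (2.26 to 4.04). Klrd1 (987 against 661 and 1084 against 713), Klre1 (670 against 456 and 627 against 318), Klrc2 (204 against 157 and 224 against 101) and Klrb1c (486 against 362 and 596 against 530) were higher with a Ly49 UMI in both libraries. Klrk1 had ratios whose intervals span 1, 0.951 (0.850 to 1.07) and 0.956 (0.885 to 1.03). Klrg1 was higher with a Ly49 UMI under chow (85.7 against 46.8 CPM), while under KD the interval of its ratio spanned 1 (52.2 against 44.5). Klrb1b and Klrc1 were thus the 2 of the 9 with intervals that put them higher in the cells without a Ly49 UMI in both libraries. Cells without a Ly49 UMI were not shallower, with medians of 2522 and 3371.5 UMIs against 2253 and 3124.5.

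**Figure D2:**
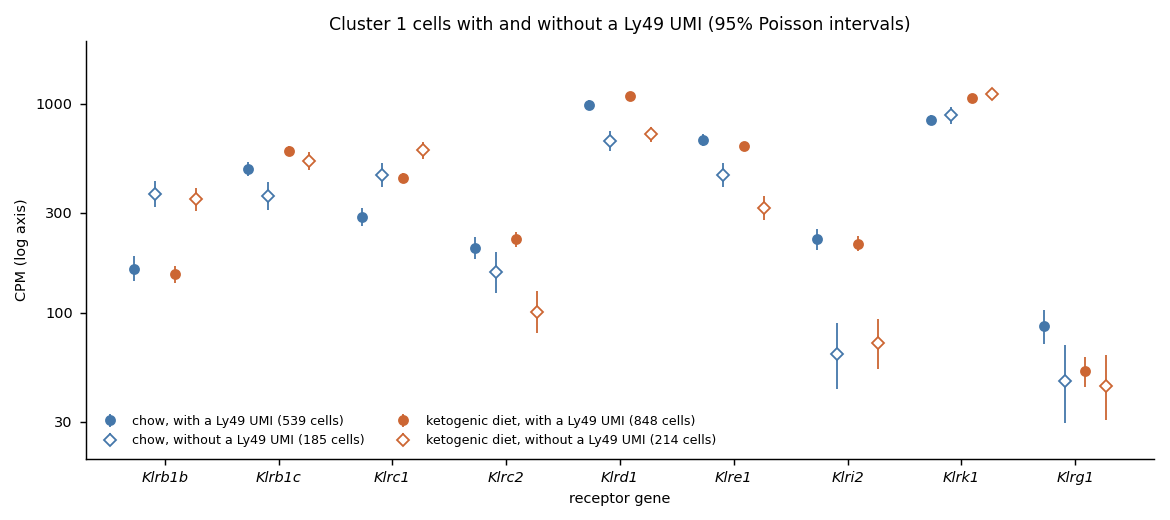
CPM (logarithmic axis) of each receptor gene in cluster 1 cells with at least 1 UMI of a Klra gene (filled circles) and without one (open diamonds), blue for chow and orange for KD, with 95% exact Poisson intervals. Klrb1b and Klrc1 are higher in the cells without a Ly49 UMI, Klri2 is about 3-fold higher in the cells with one, and for Klrk1 the points lie close together within each library.

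Joint detection of receptors in the same NK-like cell was counted for 9 pairs of genes and set against the number expected from independent detection, with cells grouped by depth into 10 bins. The ratio of observed to expected lay between 0.965 and 1.12, and a gene detected in most cells leaves this ratio little room to differ from 1. The cells carrying both Klrc1 and Klrc2 numbered 119 under chow and 256 under KD against 115 and 265 expected from independent detection. The ratio of observed to expected was 1.02 and 1.01 for Klrd1 with Klrc1 and 1.03 in both libraries for Klrd1 with Klrc2. For Klre1 with Klri2, which form 1 receptor, it was 1.08 under chow (156 observed, 144 expected) and 1.09 under KD (282 observed, 258 expected). Without grouping by depth, Klri2 was detected in 29.5% of the cells with a Klre1 UMI and 21.9% of those without under chow, and in 34.8% and 22.2% under KD. Klrc2 was detected in 36.0% of the cells with a Klrd1 UMI and 32.1% of those without under chow, and in 44.7% and 31.4% under KD. In cluster 4, added after values were seen, Klrc1 and Klrc2 were found together in 42 cells against 28.1 expected under chow (ratio 1.49) and 89 against 69.6 under KD (1.28). Part of the reads of Klrc1 and Klrc2 fits both genes, and how far shared reads enter the count of cells with both was not tested. Over the same 9 pairs the ratio in cluster 4 ranged from 0.449 to 1.65, and both ends were Klrc1 with Klrg1, 6 cells against 3.64 expected under chow and 8 against 17.8 under KD. Within cluster 4, Klrc1 was higher in cells with a UMI of the gamma-delta T cell receptor gene Trdc (356 and 351 CPM) than in the others (161 and 209), with ratios of 2.22 (1.51 to 3.21) and 1.68 (1.37 to 2.05).

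Between the diets, Klrc1, Klrb1c, Klrk1 and Klrd1 were moderately higher in the NK-like cells of the KD library, and Klrg1, Klrb1b and Klre1 were lower. None of the 9 was past 2-fold. Among all genes with at least 100 UMIs in cluster 1, 0.514% were at least 2-fold higher under KD and 1.05% at least 2-fold lower, and the median ratio of all genes was 0.04 on the log2 scale. The interval of the ratio lay above 1 for 17.5% of these genes and below 1 for 14.5%. Klrc1 went from 334 CPM (600 UMIs) under chow to 473 (1701 UMIs) under KD, a KD to chow ratio of 1.42 (1.29 to 1.56). The ratio was 1.29 (1.19 to 1.40) for Klrb1c, 1.26 (1.19 to 1.34) for Klrk1 and 1.12 (1.06 to 1.19) for Klrd1. On the lower side were Klrg1, at 75.1 against 50.6 CPM and a ratio of 0.674 (0.537 to 0.849), Klre1 at 0.922 (0.856 to 0.993) and Klrb1b at 0.881 (0.777 to 0.9996). Klrc2 (1.04, 0.913 to 1.19) and Klri2 (1.02, 0.895 to 1.17) had intervals that span 1. In the cells without a Ly49 UMI, however, Klrc2 was lower under KD on 77 and 75 UMIs (0.645, 0.463 to 0.898), as was Klre1 (0.698, 0.579 to 0.842), beside ratios of 1.10 (0.951 to 1.27) and 0.936 (0.863 to 1.02) in the cells with one. Among cells with a CD3 UMI (Cd3e, Cd3d or Cd3g), Klri2 was at 0.684 (0.516 to 0.913), beside 1.15 (0.986 to 1.34) in the others. The intervals of Klrc1 (1.21, 0.966 to 1.53), Klrk1 (1.11, 0.978 to 1.27) and Klrd1 (1.10, 0.964 to 1.26) spanned 1 in the cells with a CD3 UMI. In the cells without one they lay above 1. Over all cells of the cluster, the inhibitory and the activating partner of Klrd1 had ratios of 1.42 and 1.04, with intervals that do not overlap. Within depth classes their intervals did overlap. These were 1.16 to 1.49 and 0.974 to 1.37 in cells under 3000 UMIs, and 1.43 to 2.14 and 0.866 to 1.495 in the deeper cells. The sum of the 9 genes was 3808 CPM under chow and 4324 under KD, a ratio of 1.14 (1.10 to 1.17).

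Depth moved with diet in this cluster and touches these ratios. The median cell of cluster 1 had 2296.5 UMIs under chow and 3147 under KD, and 96 of 724 chow cells but 612 of 1062 KD cells had at least 3000. In both libraries the deeper cells had a lower summed level of the 9 receptors, 2925 against 4050 CPM under chow and 4119 against 4758 under KD. Within the deeper cells the summed ratio was 1.41 (1.32 to 1.499) and within the others 1.17 (1.13 to 1.22). Klrc1 (1.74 and 1.31), Klrb1c (2.08 and 1.19), Klrk1 (1.57 and 1.35) and Klrd1 (1.34 and 1.23) had ratios above 1, with intervals that exclude 1, in both depth classes. Klrg1 was at 0.573 (0.405 to 0.801) in the shallower and 0.931 (0.590 to 1.54) in the deeper cells. Klre1 turned direction, from 0.930 (0.842 to 1.03) in the shallower to 1.14 (0.978 to 1.34) in the deeper cells, both intervals spanning 1. Klrb1b was at 0.868 (0.727 to 1.04) and 0.905 (0.716 to 1.16), close to its ratio of 0.881 in all cells, with wider intervals that span 1. Klri2 was at 1.20 (1.01 to 1.43) in the shallower and 1.21 (0.902 to 1.64) in the deeper cells. Klrc2 was at 1.16 (0.974 to 1.37) and 1.13 (0.866 to 1.495). Both genes thus had higher ratios within each depth class than in all cells (1.02 for Klri2 and 1.04 for Klrc2). The NK marker genes Ncr1, Eomes, Gzma, Gzmb, Prf1, Klra8, Klra4, Klra7 and Nkg7 moved as well, 8 of the 9 being higher under KD in cluster 1 and their sum going from 9103 to 9788 CPM. The CD8 T cell markers (Cd3e, Cd3d, Cd3g, Cd8a, Cd8b1 and Trac) went from 209 to 288 CPM in sum, and the macrophage markers from 190 to 51.5. The part of these marker genes in the receptor ratios was not tested.

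**Figure D3:**
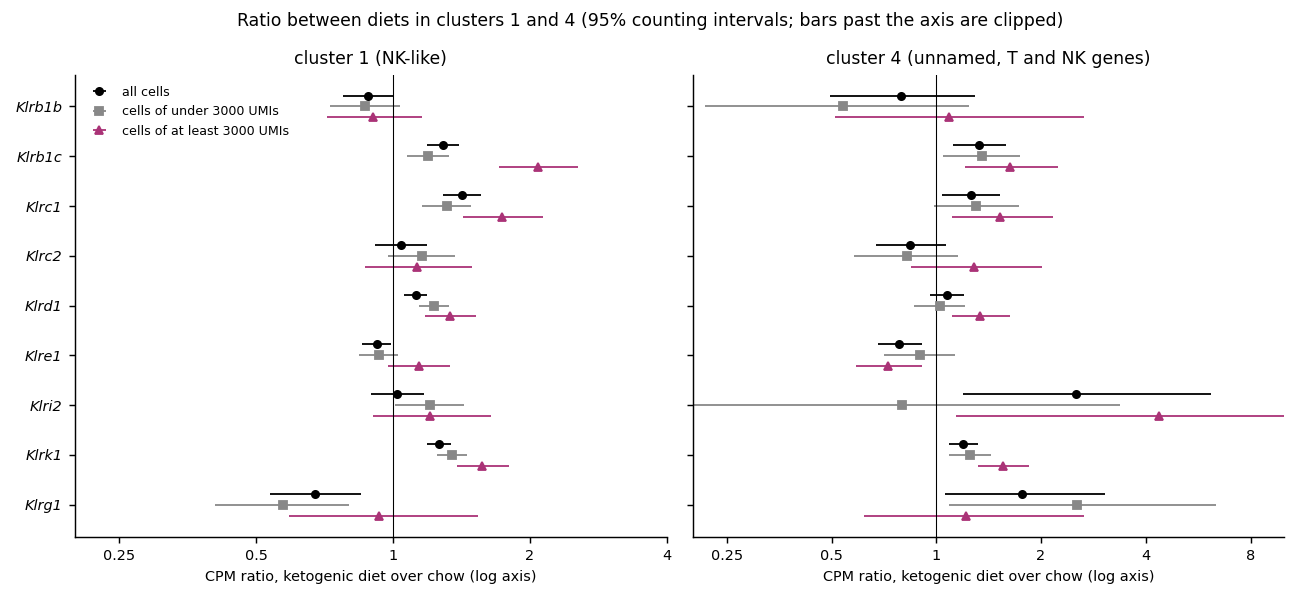
KD over chow CPM ratio of each receptor gene (logarithmic axis, line at 1) in cluster 1 and cluster 4, with 95% counting intervals, for all cells (black circles), cells with under 3000 UMIs (grey squares) and cells with at least 3000 (purple triangles). Klrc1, Klrb1c, Klrk1 and Klrd1 lie right of 1 in both depth classes of cluster 1.

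The share of thinned NK-like cells with a UMI differed in the same direction as the level for Klrc1, Klrb1c, Klrk1 and Klrg1. Thinning makes the UMIs drawn per cell equal and leaves the mix of deeper and shallower cells as it was. Thinned to 1000 UMIs, 26.1% of cluster 1 cells had a Klrc1 UMI under chow and 32.8% under KD, 37.2% and 43.6% had Klrb1c, 55.7% and 63.7% Klrk1, and 7.04% and 4.399% Klrg1. Unthinned, the shares for Klrc1 were 45.4% and 57.2%, and for Klrb1c 64.8% and 81.5%. In ILC2-like cells Klrc1 was seen in 0.583% and 0.549% and Klrb1c in 0.703% and 0.700% of thinned cells. At least 1 of the 9 receptors was seen in 96.4% of thinned chow and 97.6% of thinned KD cells of cluster 1.

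Cluster 4 had a similar set of differences. Klrb1c went from 223 to 296 CPM, a KD to chow ratio of 1.33 (1.12 to 1.59), Klrc1 from 191 to 240 (1.25, 1.04 to 1.52) and Klrk1 from 747 to 893 (1.19, 1.09 to 1.32). Klre1 was lower, at 373 against 292 CPM and a ratio of 0.784 (0.678 to 0.907). It was below 1 in both depth classes here, 0.729 in the deeper and 0.898 in the other cells, and the interval of the latter spanned 1. Klri2 was the only one of the 9 past 2-fold in this cluster, on 8 chow and 52 KD UMIs, 2.52-fold higher (1.19 to 6.15). In the deeper cells its ratio was 4.35 (1.14 to 37.0) on 2 and 48 UMIs. In the shallower cells it was 0.798 (0.166 to 3.37) on 6 and 4 UMIs. Among genes with at least 20 UMIs in cluster 4, 4.10% were at least 2-fold higher under KD. Intervals above 1 were found for 8.96% of those genes and intervals below 1 for 7.08%. Klrg1 was higher on 19 and 86 UMIs (1.76, 1.06 to 3.06), opposite to its direction in cluster 1. In the shallower cells of cluster 4 its ratio was 2.53 (1.09 to 6.34), on 9 and 19 UMIs. In the deeper cells the interval spanned 1 in both clusters, at 1.21 (0.621 to 2.65) in cluster 4 and 0.931 (0.590 to 1.54) in cluster 1. Klrd1, Klrc2 and Klrb1b had intervals that span 1. All 9 NK markers were higher under KD in cluster 4 too, summing to 3336 and 4022 CPM (ratio 1.21, 1.15 to 1.26), the 6 CD8 T cell markers (Cd3e, Cd3d, Cd3g, Cd8a, Cd8b1 and Trac) went from 2629.5 to 3130.4 CPM, and the part of either was not tested. Cluster 4 held 269 chow and 515 KD cells with medians of 2475 and 3388 UMIs.

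The partners of these receptors differed in both directions. In cluster 1, the adaptors Hcst (DAP10), Tyrobp (DAP12) and Fcer1g had KD to chow ratios of 0.921, 1.03 and 0.9496. Of 18 adaptor and signalling genes, all with at least 100 UMIs there, none was past 2-fold, 9 had a log2 ratio above 0 and 9 below, ranging from -0.58 to 0.82, and their median was -0.03 beside 0.04 for all genes. The phosphatase genes Ptpn6 (SHP-1) and Inpp5d (SHIP-1), named after their values were seen, had ratios of 1.77 (1.39 to 2.28) and 0.742 (0.624 to 0.885). In cluster 4, 14 of the 18 genes had at least 100 UMIs, 8 above and 6 below 0, with none past 2-fold. Below that minimum, Syk was at 0.305 (0.125 to 0.723) on 14 and 11 UMIs, and Plcg2, Ptpn11 and Sh2d1b1 had intervals that span 1. In cluster 1, 8 of 11 other NK receptors had at least 100 UMIs, and these 8 had a log2 ratio above 0, with a median of 0.44. Of these 8, Cd96, which binds nectin-like proteins, was past 2-fold, at 21.7 against 47.8 CPM (2.21, 1.55 to 3.21). Below that minimum, the integrin genes Itga2 and Itga1 had lower levels under KD, with ratios of 0.405 (0.250 to 0.652) on 42 and 34 UMIs and 0.560 (0.315 to 1.002) on 25 and 28. In cluster 4 the 6 such receptors with at least 100 UMIs had a log2 ratio above 0, with a median of 0.60 beside 0.07 for all genes. Of these 6, Cd160 was past 2-fold (102 against 209 CPM, ratio 2.05, 1.60 to 2.65). Among all genes with at least 100 UMIs there, 0.986% were at least 2-fold higher under KD. Below that minimum, Fcgr3, Itga1 and Itga2 had ratios of 0.777, 0.721 and 0.699 with intervals that span 1. Of 10 transcription factors of NK cells and group 1 innate lymphoid cells, 9 had at least 100 UMIs in cluster 1, 5 above and 4 below 0, with none past 2-fold. They ranged from 0.517 (0.399 to 0.671) for Zeb2 to 1.40 (1.12 to 1.75) for Ikzf3. In cluster 4, 6 had at least 100 UMIs, 4 above and 2 below 0, with none past 2-fold. Below that minimum, Zeb2 was at 0.377 (0.224 to 0.632) on 33 and 32 UMIs, while Eomes, Prdm1 and Zfp683 had intervals that span 1. Of 5 further relatives outside the Ly49 branch, Klrb1a (82.9 against 132 CPM) and Klrb1f (94.5 against 142) had at least 100 UMIs and ratios of 1.60 (1.33 to 1.93) and 1.504 (1.26 to 1.80) in cluster 1, and 1.30 (0.865 to 2.01) and 1.76 (1.11 to 2.89) in cluster 4. Klrb1, Klrc3 and Klri1 had at most 12 UMIs in either library in cluster 1, with intervals that span 1. The lists were drawn up with earlier results of these data known.

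On the ligand side, H2-T23, the gene of the Qa-1 heavy chain read by CD94 receptors, was spread over all clusters, from 98.6 to 214 CPM under chow and from 99.2 to 240 under KD. Clec2d, the ligand of Klrb1b, ranged from 25.4 to 131 and from 20.1 to 153, in both libraries highest in mature DC-like cells. The NKG2D ligands were at the edge of detection among these leukocytes. Ulbp1 had 33 UMIs under chow and 64 under KD, at most 10.2 and 10.0 CPM and in both libraries highest in the cycling cluster, and Raet1d had 12 and 8 in all clusters together. Cdh1 had 84 chow and 34 KD UMIs and did not pass 10.1 CPM in any cluster. Cells outside the CD45+ population, which can carry such ligands, were not measured.

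In the dendritic cells, the receptors that reached them differed between diets in both directions. Klrb1b was lower under KD in cDC2-like cells, at 107 against 57.5 CPM (ratio 0.540, 0.439 to 0.663), and in cDC1-like cells, at 64.8 against 39.9 (0.616, 0.487 to 0.779). Klrd1 was lower in both as well, with ratios of 0.857 (0.792 to 0.927) and 0.664 (0.560 to 0.786). Klrk1 was higher in cDC2-like cells, at 101 against 142 CPM (1.40, 1.18 to 1.66), and in mature DC-like cells on 26 and 57 UMIs (2.47, 1.53 to 4.09), while in cDC1-like cells the interval spanned 1 (0.956, 0.834 to 1.10). In the cDC2-like cells without NK transcripts the ratios were 0.553 (0.400 to 0.758) for Klrb1b, 0.813 (0.711 to 0.928) for Klrd1 and 1.55 (1.15 to 2.08) for Klrk1. In those with NK transcripts they were 0.540 (0.408 to 0.713), 0.847 (0.768 to 0.935) and 1.26 (1.03 to 1.55), and the differences between the sides were not tested. Klrg1 in cDC1-like cells was 2.39-fold higher under KD (1.47 to 4.03), on 22 and 75 UMIs. By the same split its ratio was 2.90 (1.45 to 6.43) in cDC1-like cells with NK transcripts and 1.83 (0.897 to 3.97) in those without. For Klrd1 in cDC1-like cells the ratio was 0.808 (0.631 to 1.04) with and 0.554 (0.433 to 0.706) without them. In mature DC-like cells Klrk1 had a ratio of 2.72 (1.35 to 5.82) with and 2.23 (1.13 to 4.61) without NK transcripts. The summed NK markers in cDC1-like cells went from 153 to 179 CPM and in cDC2-like cells from 246 to 268. In mature DC-like cells they went from 110 to 396 CPM, a ratio of 3.59 (2.53 to 5.18) with all 9 higher under KD, and their part in the Klrk1 ratio there was not tested. The summed CD8 T cell markers moved as well. Their level went from 81.6 to 294 CPM in cDC2-like, 48.8 to 143 in cDC1-like and 87.3 to 176 in mature DC-like cells, and the cells without NK transcripts were not chosen for lacking T cell transcripts. The part of T cell transcripts in the receptor ratios of the dendritic cells was not tested.

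Over all clusters, 96 of the 117 member and cluster combinations had at least 20 UMIs. Of these, 17 were at least 2-fold higher under KD and 1 (Klri2 in cluster 0, on 11 and 10 UMIs) at least 2-fold lower, against 5.82% higher and 3.97% lower over all genes and clusters with as many UMIs. The 95% interval lay above 1 in 29, below 1 in 9, and spanned 1 in 58, against 12.7% above and 8.37% below 1 over all genes and clusters with as many UMIs. Those at least 2-fold higher were 6 in the macrophage-like cluster 3 (5.43% of all genes there), 4 in the cycling cluster 10 (6.63%), 2 each in clusters 7 (6.23%) and 9 (21.4%), and 1 each in clusters 4 (4.10%), 6 (3.02%) and 12 (5.55%). So 14 of the 17 lay in clusters 3, 7, 9 and 10.

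**Figure D4:**
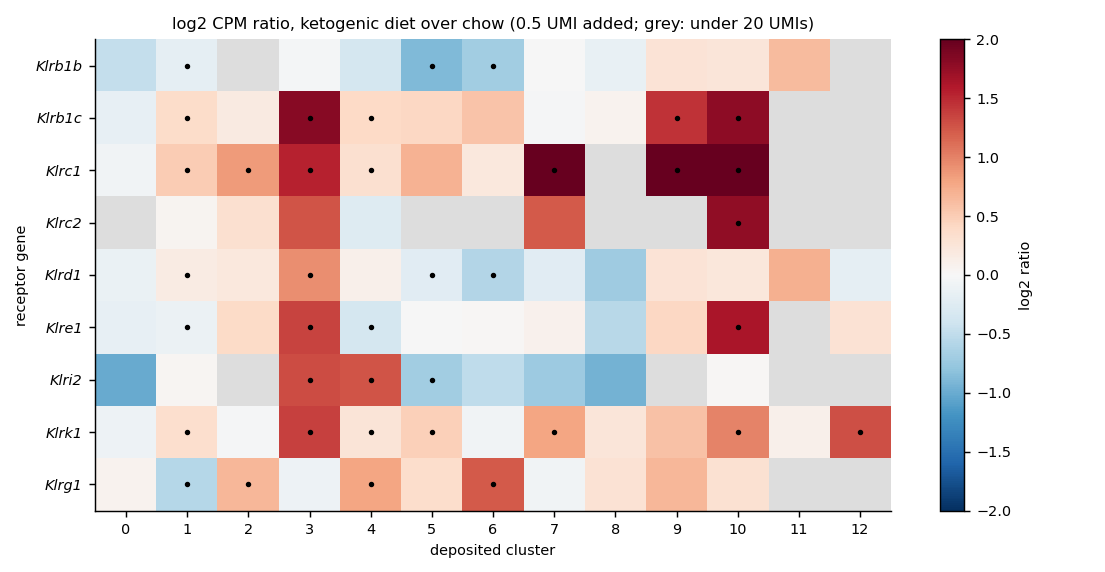
Log2 KD over chow CPM ratio of each receptor gene in each cluster (0.5 UMI added, colour scale ending at -2 and 2, grey where under 20 UMIs); a dot marks a 95% interval that excludes 1. The strongest red cells stand in clusters 3, 7, 9 and 10, and the cells for clusters 0, 5 and 6 are mostly pale or blue.

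In cluster 3, the sum of the 9 receptors was 134 CPM under chow and 281 under KD, with Klrb1c at 9.25 and 32.5 and Klrk1 at 31.7 and 81.7. The NK markers, genes not known from macrophages, were higher there too, in 8 of 9 genes, their sum going from 171 to 415 CPM with Prf1 at 0 UMIs under KD, and the CD8 T cell markers went from 75.0 to 139 CPM. NK-like cells gave 8.42% of clustered UMIs under chow and 13.9% under KD. How far transcripts of other cells enter the receptor values of cluster 3 was not tested. The KD to chow ratio there was 3.51 (2.13 to 5.69) for Klrb1c and 2.58 (1.93 to 3.42) for Klrk1, and 5.53 and 3.32 after subtraction of an assumed 10% share of each library's overall profile.

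In the cycling cluster 10, Klrc1 had 12 UMIs under chow and 106 under KD (8.70 against 66.5 CPM), and Klrb1c, Klrc2 and Klre1 were 3.12-fold to 3.54-fold higher. The makeup of this cluster differed: 64 of 142 chow cells and 117 of 154 KD cells had a UMI of a CD3 gene or Ncr1. Among those cells alone, a split chosen after values were seen, the ratio was 5.11 (2.74 to 10.5) for Klrc1, 3.36 (1.86 to 6.59) for Klrb1c, 2.23 (1.49 to 3.45) for Klre1 and 2.21 (1.69 to 2.91) for Klrk1. For Klrc2 it was 1.87 (0.934 to 4.05). All 9 NK markers were higher in cluster 10 under KD, summing to 455 and 1281 CPM, the CD8 T cell markers went from 283 to 1089.5 CPM, and the part of either was not tested.

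In the Treg-like cluster, Klrc1 had 2 UMIs under chow and 56 under KD, a ratio of 9.86 (2.61 to 83.4), and Klrk1 43 and 213, a ratio of 1.74 (1.25 to 2.48). Under KD, Klrc1 was at 4.94 CPM in cells with a Foxp3 UMI and 53.5 in the others. The NK markers of this cluster summed to 1020 and 1328 CPM, 7 of 9 being higher under KD. In B and plasma-like cells Klrc1 had 1 and 19 UMIs (7.64, 1.21 to 317) and Klrb1c 4 and 30 (3.01, 1.06 to 11.8), where the median ratio of all genes was itself 0.50 on the log2 scale and the NK markers summed to 237 and 294 CPM. The CD8 T cell markers went from 58.1 to 248 CPM there and from 1799 to 2390.2 in Treg-like cells, and their part in these ratios was not tested. In the main populations of Klrg1 the intervals spanned 1, at a KD to chow ratio of 1.06 (0.987 to 1.13) in ILC2-like and 0.953 (0.829 to 1.10) in Treg-like cells. In the T-like cluster 2, Klrg1 was higher under KD on 27 and 195 UMIs (1.61, 1.07 to 2.51), as was Klrc1 on 12 and 101 (1.88, 1.03 to 3.75), with NK markers at 1469 and 1414 and CD8 T cell markers at 3068 and 4047 CPM in sum.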

How the data were processed

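Per the labels, single-cell libraries were prepared by 10x Genomics protocols. Per the submitters' processing notes, Cell Ranger, Seurat and mm10 (GRCm38) were used, with versions not given in the sources used here. The authors deposited raw UMI counts per gene and cell, with a table that gives most cells a cluster number (its header names resolution 0.5), and these clusters were used as given. Cells outside that table (87 chow, 55 KD) were left out, no other filter was applied, and no doublet caller was run. UMIs of each gene were summed per cluster and library and divided by the summed UMIs (CPM). Intervals at 95% are exact Poisson for a level and exact conditional binomial for a ratio of CPM. PCR duplicates are removed by UMIs, but the intervals omit differences between mice. Log2 ratios had 0.5 added to each count. Shares used the exact expectation after thinning to 1000 UMIs, which left out no cell. The text names the 9 receptors, the 3 genes most alike to each, direct partners, and genes of the pathway lists past 2-fold in cluster 1 or 4 with at least 100 UMIs there. Some further list genes outside this rule are named as well. Members, lists, splits and alternatives were chosen with earlier results of these data known. A cluster was named when at least 3 of a type's markers were raised 2-fold, at least 1 being among its top 10 genes, after the type with the most markers among those 10. Cluster 4 met this for 4 lists, of NK and T cells, and cluster 8 for monocytes with 1 of its 10 leading genes, and both were left unnamed. As exceptions to the last step, cluster 2 was named for CD4 and CD8 T cells together and cluster 9 for B and plasma cells together. Promoters and positions are from RefSeq (GRCm38.p6) and GENCODE (GRCm38). Protein sequences were not used here. The calculation of ratios and intervals was checked on simulated Poisson counts. Those counts held no differences between mice or in cell depth, so the check does not bear on the ratios between diets. Alternatives changed the scaling, cells, free RNA and thresholds. Python 3.11.15, numpy 2.4.6, scipy 1.17.1 and pandas 2.3.3 were used.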

Additional observations from a re-analysis of the deposited data

Results flagged for a closer look

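Some receptors had ratios whose intervals lay on opposite sides of 1 in different clusters. The difference between the clusters was not tested. Klrd1 had a KD to chow ratio of 1.12 in NK-like cells and 0.857 in cDC2-like cells. Klrg1 had 0.674 in NK-like and 1.61 in T-like cells, Klre1 0.922 in NK-like and 3.12 in cycling cells, and Klri2 2.52 in cluster 4 and 0.613 in cDC2-like cells. Cells that the authors' table leaves out of all clusters also carried the receptors, with 244 UMIs in 87 chow cells and 210 in 55 KD cells, or 1098 and 1196 CPM, against 743 and 1218 CPM in clustered cells.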

How the results depend on the processing

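No paired analysis was possible because each diet has 1 library. The summed receptor ratio in cluster 1 (1.14) was 1.55 as UMIs per cell, which holds the difference in depth, and 1.41 in cells with at least 3000 UMIs. It was 1.10 without Klrk1, the receptor with the most UMIs there over both libraries together. It ranged from 1.11 to 1.16 under the other alternatives, among them leaving out barcodes present in both libraries, cells with a CD3 UMI, or either side of the Ly49 split, which were partly added after the data were seen. Of 286 single ratios recomputed, 251 stayed within the counting interval, 35 left it (20 as UMIs per cell, 13 in deeper cells, 2 after subtraction of free RNA) and none of those past 2-fold turned direction. Cells under 3000 UMIs were not among these alternatives, and in them Klri2 in cluster 4 was at 0.798 on 6 and 4 UMIs. The 18 combinations past 2-fold became 34 after 10% free RNA was subtracted; the cause was not tested. The share of genes past 2-fold in cluster 1 (1.56%) was 3.05% at a minimum of 50 UMIs, 1.13% at 200, and 10.99% at 1.5-fold. Cells of cluster 1 with any receptor were 99.9% in both libraries without thinning, and 99.5% (chow) and 99.7% (KD) thinned to 2000 UMIs. Of the 27 most alike genes, 17 were also named over 13 cluster means, 18 with 1 added to CPM, 19 with 50 added, and 6 by Spearman's rho, so the individual names depend on the measure. Co-detection in cluster 1 stayed within counting error in 36 of 36 recomputations with 1 or 20 depth bins. The counts of cluster 4 were not recomputed in this way. Levels under about 10 CPM rest on few UMIs, and paralogs with shared reads remain uncertain.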
